A study of Mus musculus with 12 samples.

Results

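A pair of rearranged kappa light chain genes, IGKV3-12 joined to IGKJ5 and IGKV15-103 joined to IGKJ1, was found in every one of 6 mouse myeloma cell sources, called lines here. They were taken as all rows of the 6 light chain clonotype tables whose first V gene was IGKV3-12 or IGKV15-103. That rule chose 2 of 26 kappa V genes, 14 of 55 rows and 9251 of 9770 counts (94.7%). The pair was chosen by its light chain counts, which were above 0 in all lines, so these levels are given as a description without a test.

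The libraries came from CD138+B220- bone marrow myeloma cells of the VQ mouse model, sequenced for heavy and light chain transcripts with 1 library per chain and line. The genotype of all 6 lines is Vκ*MYC, NrasLSL Q61R/+ and IgG1-Cre, so no line lacks an allele. Primary cells make up 4 of the lines (VQ-D1, D2, D4 and D5), and the other 2, 4935 and 4938, are cell lines derived from VQ-D2. The labels state no age or treatment of the animals, and not how the 2 cell lines were raised. Vκ*MYC is a MYC transgene under kappa control elements that is switched on by somatic hypermutation, and the Cre expressed with IgG1 opens the mutant Nras allele in B cells that have begun class switching. Every library holds immunoglobulin transcripts alone, so CD138 (Sdc1) and B220 (Ptprc) could not be checked.

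A kappa chain gene is made when a V segment is cut and joined to a J segment upstream of the constant gene IGKC. The joint lies in the third complementarity-determining region (CDR3), which contacts antigen. Bases are trimmed from both ends, and few are added, because the polymerase that adds bases is mostly off when kappa genes join. The same short kappa CDR3 can therefore arise repeatedly in unrelated B cells. A myeloma clone usually carries 1 productive heavy and 1 productive light chain, although B cells with a pair of expressed kappa chains exist.

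Both junctions were the same to the base in all 6 lines, as the following CDR3 sequences show with the bases assigned to J in capitals.
IGKV3-12/IGKJ5, all 6 lines: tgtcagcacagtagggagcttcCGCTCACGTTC
IGKV15-103/IGKJ1, all 6 lines: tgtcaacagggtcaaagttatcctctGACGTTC

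For each V gene, 15 of 15 pairs of lines had the identical 33-base CDR3 and the same J gene. In the IGKV3-12 joint, 3 V bases were trimmed and no J base was trimmed. The V part covered 23 bases and the J part 11, so 1 C was shared by both and can be counted as V or as a palindromic base of IGKJ5. In the IGKV15-103 joint, no V base and 3 bases of IGKJ1 were trimmed, with 26 V and 7 J bases. Neither joint had an added base, and neither deposited alignment lists a V change within the CDR3. They translate to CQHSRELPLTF and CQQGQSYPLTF, both in frame.

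Joints of this form were not particular to the pair. Of the 36 other kappa clonotypes in the 6 libraries, 34 (94.4%) had no added base. Counted separately, 28 of the 36 (77.8%) had a CDR3 of 33 bases. The trimming of IGKV3-12/IGKJ5 recurred in 6 of the 36 (16.7%) and that of IGKV15-103/IGKJ1 in 1 (2.78%). IGKJ1 was joined in 15 of the 36 and IGKJ5 in 6. What set the pair apart was how many lines held it, which is what the rule selected: of the 36 others, 32 were found in 1 line and the most widespread in 3. The others had 476 counts in VQ-D5, 418 of them from 1 clonotype, and at most 24 in any other line. A clonotype with few counts can be missed in a second library, so this spread is not compared at equal abundance.

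Both V genes lie on chromosome 6 in mm10, far apart from each other. In mouse kappa names the number after the hyphen counts V genes from the J side, here 12 and 103. IGKV3-12 spans chr6:70518250-70518849 and is 205 kb from IGKJ5 at chr6:70723886-70723923. IGKV15-103 spans chr6:68437468-68437925 and is 2285 kb from IGKJ1 at chr6:70722562-70722599. IGKJ5 is the J segment nearest the constant gene, so a joint to it leaves no further J segment downstream on that chromosome. Annotation is that of the RefSeq gene table for GRCm38, the same build, where all are V or J segments.

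The order of the pair changed from line to line. IGKV3-12 had 1725 of 1748 light chain counts for VQ-D2, 1532 of 1618 for VQ-D4, 1637 of 2223 for VQ-D5 and 159 of 212 in 4938, and only 59 of 3584 in VQ-D1 and 70 of 385 in 4935. IGKV15-103 had 3518 counts in VQ-D1 and 314 in 4935, against 12, 62 and 110 in VQ-D2, VQ-D4 and VQ-D5 and 53 in 4938. IGKV3-12 was thus the larger in 4 lines and IGKV15-103 in 2, and no line had only 1 of them. Over the 4 primary lines IGKV3-12 took 67.2% ± 45.04 (SD, n = 4) and IGKV15-103 took 26.9% ± 47.5 (SD, n = 4). Without VQ-D1 the IGKV15-103 mean fell to 3.16%. The means over the 2 derived lines were 46.6% ± 40.2 and 53.3% ± 39.99 (SD, n = 2 each). Spreads of this size go with the change between lines in which of the pair was the larger.

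**Figure D1:**
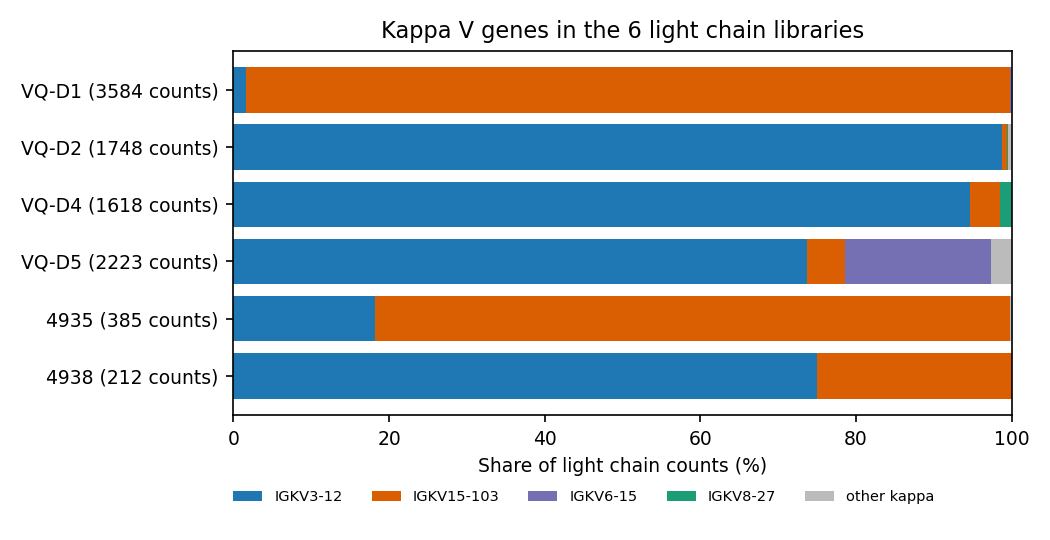
Share of light chain counts (%, horizontal axis) of IGKV3-12, IGKV15-103, IGKV6-15, IGKV8-27 and all other kappa clonotypes in each of the 6 light chain libraries, with the library's total counts in brackets. Blue and orange together fill at least 98.5% of every bar except that of VQ-D5, where they fill 78.6%.

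The smaller of the pair varied less in counts than the libraries did in size. Its counts had a median of 60.5 and a 9.17-fold range, from 12 in VQ-D2 to 110 in VQ-D5, which became 2.08-fold without VQ-D2 and 5.83-fold without VQ-D5. Library totals spanned 16.9-fold, from 212 to 3584. As a share of both V genes together, the smaller took 1.65% in VQ-D1 (exact Clopper-Pearson 95% interval 1.26% to 2.12%) and 0.691% in VQ-D2 (0.357% to 1.20%). It took 3.89% in VQ-D4 (2.99% to 4.96%) and 6.30% in VQ-D5 (5.20% to 7.54%). In the derived lines it took 18.2% in 4935 (14.5% to 22.5%) and 25% in 4938 (19.3% to 31.4%). The intervals of the 4 primary lines lie below those of both derived lines, whose libraries were also the 2 smallest. Depth and line type cannot be told apart here, and these intervals cover counting error only.

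**Figure D2:**
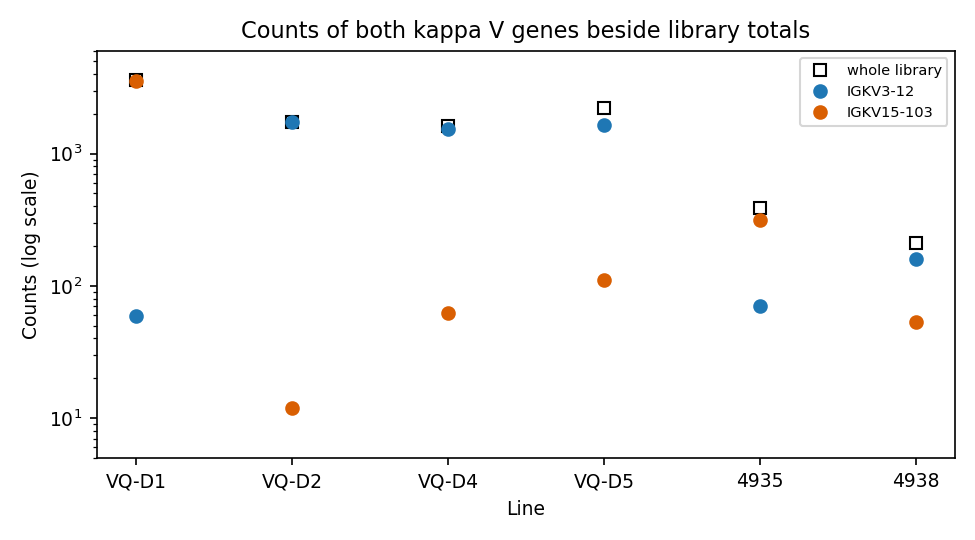
Counts on a log scale (vertical axis) of IGKV3-12 (blue), IGKV15-103 (orange) and the whole light chain library (open squares) in each line. The smaller of the pair stays between 12 and 110 counts, while library totals run from 212 to 3584.

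VQ-D2 and its 2 derivatives shared a heavy chain but not the leading kappa. IGHV4-1/IGHJ1 with IGHA, the IgA constant gene, had 2568 of 2568 heavy chain counts in VQ-D2, 411 of 411 in 4935 and 373 of 373 in 4938. Beside it, the ratio of the larger to the smaller kappa was 144 in VQ-D2 with IGKV3-12 ahead, 3 in 4938 with IGKV3-12 ahead and 4.49 in 4935 with IGKV15-103 ahead. The other lines had other heavy chains: IGHV3-1 with IGHG2B in VQ-D1 (57.5% of counts), IGHV7-3 with IGHA in VQ-D4 (100%) and IGHV3-8 with IGHA in VQ-D5 (99.5%). The same 2 kappa junctions therefore stood beside 4 different heavy chains. In bulk RNA, fewer cells with a transcript and less of it per cell cannot be told apart. Neither can cells that hold both kappas and a mixture of cells with 1 each.

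Apart from the pair, 2 kappa clonotypes reached 1% of a light library, and neither was found in all 6. IGKV6-15/IGKJ2 had 418 counts in VQ-D5 (18.8%), 3 in VQ-D1 (0.0837%, interval 0.0173% to 0.244%) and 1 in VQ-D2 (0.0572%, 0.00145% to 0.318%). VQ-D4 had 0 of 1618, which allows up to 0.185%, and 4935 and 4938 had 0, which allows up to 0.779% and 1.42%. The last 2 limits lie above the 0.686% of IGKV15-103 in VQ-D2. IGKV8-27/IGKJ1 made up 1.48% of VQ-D4 with 24 counts and 0.0572% of VQ-D2 with 1 count, with 0 counts in the other 4 lines. There 0 of 212 counts in 4938 allows up to 1.42% as 3 counts and up to 1.72% by the exact interval. The VQ-D4 value of 1.48% lies between these limits, so 4938 does not exclude it.

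The J segment beyond the CDR3 differed between the pair in a way that repeated in every line. The deposited J score of a clonotype was read as rising by 10 for each matched base and dropping by 29 for each substituted base. That cost held in all 38 deposited V and J alignments with substitutions alone, and all 95 without a change had exactly 10 per base. These alignments carry their own scores. The J score used here is a separate value that can be fractional, and its cost per base was taken over from them. IGKV3-12/IGKJ5 scored 387.5 in both VQ-D4 and VQ-D5, 389.7 in VQ-D2 and 390 in VQ-D1, 4935 and 4938, where 390 is the score of an unchanged segment. IGKV15-103/IGKJ1 scored 233.9 (VQ-D1), 234.9 (VQ-D2), 246.3 (VQ-D4), 234.2 (VQ-D5), 234 (4935) and 234 (4938), where an unchanged segment after trimming would score 350. The 2 sets of 6 scores do not overlap.

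Divided by the cost of a substitution, the shortfall of IGKV15-103 was 4 substitutions in VQ-D1, 4935 and 4938, 3.99 in VQ-D5, 3.97 in VQ-D2 and 3.58 in VQ-D4. The mean was 3.92 ± 0.171 (SD, n = 6 lines, 3 of them related), against 0.0305 ± 0.0434 (SD, n = 6) for IGKV3-12. The 14 rows of other IGKJ1 clonotypes with an IGKC hit had a median of 0 and a highest value of 2. Rows count a clonotype once for each line that holds it. Over all 37 rows of other clonotypes with IGKC the highest was also 2. A score gives an implied number of substitutions and not their positions, and an alignment cut short would lower it too. Each clonotype has 1 score, so reads with and without the changes within a clonotype cannot be separated. VQ-D4 was the line with the lowest value, and its own IGKV8-27/IGKJ1 clonotype scored 390.

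**Figure D3:**
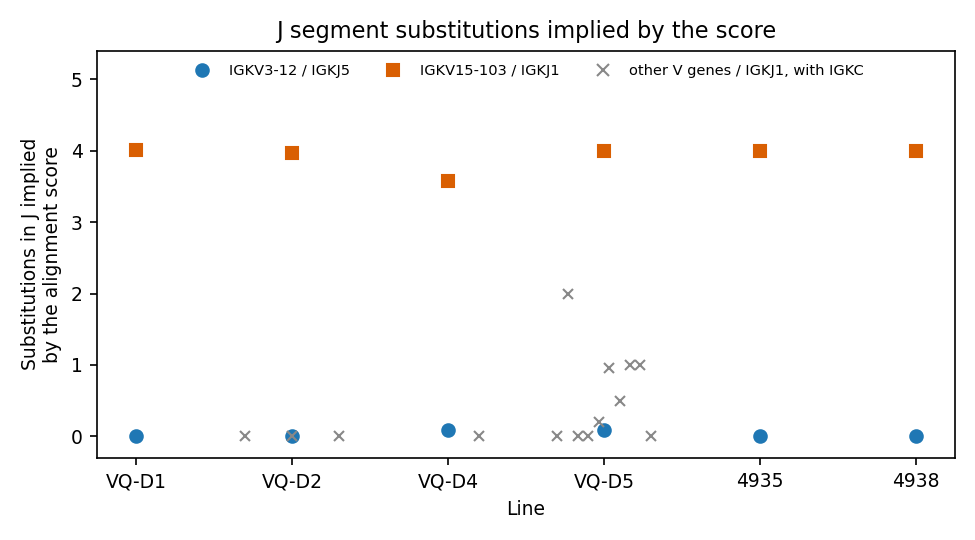
Number of J substitutions implied by the alignment score (vertical axis) in each line. Blue circles are IGKV3-12/IGKJ5 and orange squares are IGKV15-103/IGKJ1. Grey crosses, spread sideways for visibility, are the 14 rows of other IGKJ1 clonotypes with an IGKC hit, counted per line. IGKV15-103 lies between 3.58 and 4 in all 6 lines, and the highest cross is at 2.

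Bases behind the score could be read in 1 line. Heavy chain libraries held a few kappa transcripts, and in that of VQ-D1 both sequences with the IGKV15-103 CDR3 had the same 28 bases of J after it. They are shown against the commonest J stretch before the constant bases in the VQ-D4 heavy chain library (17 of 24 sequences), with the bases that differ in capitals.
Commonest J stretch in VQ-D4: ggtggaggcaccAAgCtggaAatcaaac
IGKJ1 of IGKV15-103 in VQ-D1: ggtggaggcaccCGgGtggaTatcaaac

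Counted from 1 at the first base after the CDR3, with the VQ-D4 base first, the differences were A13C, A14G, C16G and A21T. Their number, 4, equals that implied by the VQ-D1 light chain score, which comes from a separate library. VQ-D4 served as the reference because no kappa germline sequence was used here, and its stretch is not shown to be an unchanged IGKJ1. All 17 sequences shared words with IGKV8-27, joined to IGKJ1 in the light library, but 0 of them held its CDR3. The bases behind the scores of the other 5 lines were not read, since their heavy chain libraries held no IGKV15-103 sequence.

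Longer stretches of each kappa came from the same source and show the V segment before the CDR3, which is in capitals, and the J segment after it.
IGKV3-12/IGKJ5, VQ-D2: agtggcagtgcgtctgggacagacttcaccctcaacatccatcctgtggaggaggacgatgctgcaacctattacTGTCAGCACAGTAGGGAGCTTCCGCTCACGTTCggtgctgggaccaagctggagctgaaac
IGKV15-103/IGKJ1, VQ-D1: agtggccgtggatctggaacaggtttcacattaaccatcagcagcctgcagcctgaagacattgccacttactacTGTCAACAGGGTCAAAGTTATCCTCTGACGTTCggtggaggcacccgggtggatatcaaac

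IGKV3-12 could be compared between 2 unrelated lines in this way. The VQ-D2 and VQ-D5 heavy chain libraries each held 1 sequence with the IGKV3-12 CDR3, and 270 of 271 aligned bases were identical (99.6%, interval 97.96% to 99.99%). The 2 IGKV15-103 sequences of VQ-D1 were identical at 606 of 611 bases (99.2%). Both alignments were local and over whole sequences, so these are not identities of the V segment alone. The sequences were picked for holding the same CDR3, whose bases match by that choice. With 1 sequence per line, a sequencing error and a true difference cannot be told apart.

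Kappa sequences were then counted in the heavy chain libraries, a readout the choice of the pair did not use. In bulk libraries they are not linked to the heavy chain of a cell. Sequences were assigned by 20-base words to the V genes of the 4 kappa clonotypes with at least 1% of a light library, and kappas of other V genes were not counted. In VQ-D1, IGKV15-103 was 2 of 2 assigned sequences and in VQ-D2, IGKV3-12 was 1 of 1, the same V gene as led the light library. The words were taken from heavy library sequences that hold each CDR3, and these sequences are among them. Their assignment was thus fixed, and only their presence is a readout. The same holds in VQ-D5 for the 1 IGKV3-12 sequence and for 9 of the 12 IGKV6-15 sequences given below. It also holds for 1 IGKV8-27 sequence of VQ-D4. In VQ-D4, IGKV3-12 and IGKV15-103 were 0 of 36, which allows up to 8.33%, whereas they were 94.7% and 3.83% of the light library. All 36 shared words with IGKV8-27, at least 45 each. Only 1 held its exact CDR3, however, and related V genes outside the 4 may share such words. With matching over 90 bases before the CDR3 in place of 250, IGKV8-27 was 2 of 28 (7.14%) and IGKV6-15 was 26 of 28 (92.9%), on as few as 2 words. Which V gene led there was therefore not settled, while both members were at 0 either way. In VQ-D5, IGKV3-12 was 1 of 13 (7.69%, interval 0.195% to 36.0%) and IGKV15-103 was 0 of 13, which allows up to 23.1%, against 73.5% and 4.95% in the light library for the main CDR3s. The other 12 were IGKV6-15. Light shares are of clonotype counts over all kappas, and heavy shares are of sequences assigned to the 4 V genes alone. In these unlike units, intervals of IGKV3-12 in heavy and light libraries do not overlap in VQ-D4 and VQ-D5. For IGKV15-103 no difference was detectable there at this depth, and the few sequences of VQ-D1 and VQ-D2 set no useful limit. The heavy chain libraries of 4935 and 4938, with 294 and 826 sequences, gave no assigned kappa sequence.

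**Figure D4:**
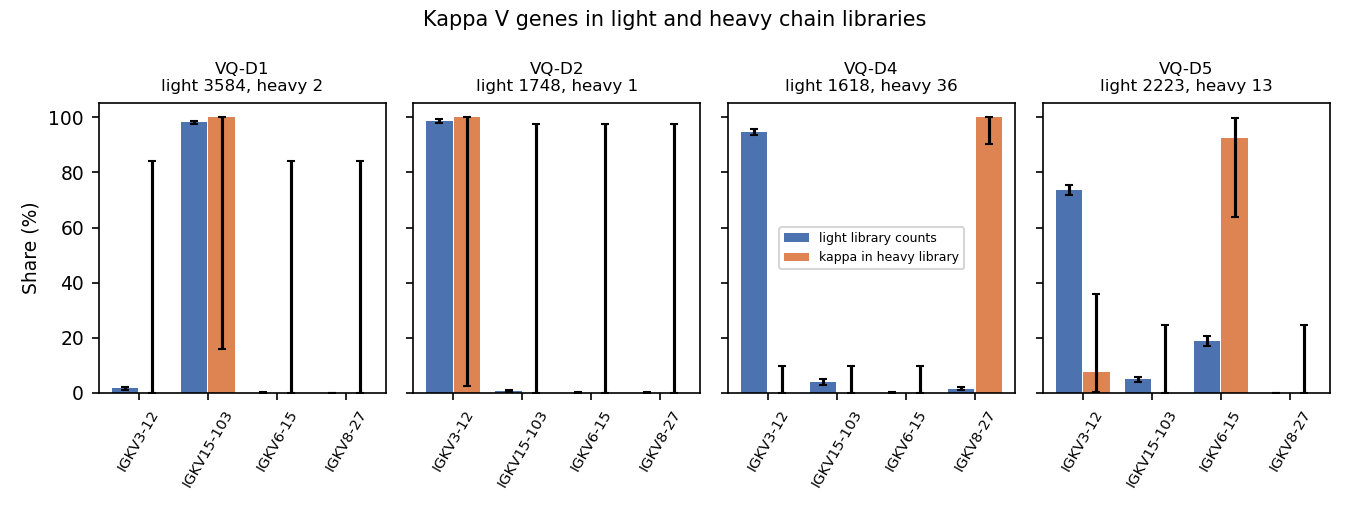
Share (%, vertical axis) of 4 kappa V genes among light chain counts (blue) and among kappa sequences assigned to these genes in the heavy chain library (orange) of the 4 primary lines, with exact 95% intervals as error bars and the totals above each panel. The V gene with the tallest bar matches between both libraries of VQ-D1 and of VQ-D2, whose assigned sequences supplied matching words themselves. It differs in VQ-D4, where 1 IGKV8-27 sequence also supplied words, and in VQ-D5, where 9 IGKV6-15 and 1 IGKV3-12 sequences did. The orange VQ-D4 bar of IGKV8-27 falls to 7.14% with 90 bases for matching.

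Other CDR3s of the same V genes were rare and numbered 2 in all. The first was an IGKV3-12/IGKJ2 clonotype of VQ-D5, with 2 counts beside 1635 of the main one. It is shown with the IGKV6-15/IGKJ2 clonotype of the same library. In the first line capitals mark the bases after those shared with the main IGKV3-12 CDR3, and in the second line they mark the stretch that both lines share.
IGKV3-12/IGKJ2, VQ-D5: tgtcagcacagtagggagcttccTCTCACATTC
IGKV6-15/IGKJ2, VQ-D5: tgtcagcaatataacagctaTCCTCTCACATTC

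Its first 23 bases equal those of the main IGKV3-12 CDR3 and its last 13 equal those of IGKV6-15, so the pair of stretches covers all 33 bases. Its lowest base quality was 18, and that of the other V genes' clonotypes was 22 or more. The second was an IGKV15-103/IGKJ1 CDR3 of VQ-D1 with 1 count beside 3517, which was 2 bases shorter and out of frame.
IGKV15-103 variant, VQ-D1: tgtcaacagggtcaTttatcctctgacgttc

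It shares the first 14 and the last 16 bases with the main CDR3, and the capital marks the base between them. Its J score was 234, that of the main clonotype. No other CDR3 was assigned to either V gene in VQ-D2, VQ-D4, 4935 or 4938.

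Base quality was equal for the smaller and the larger of the pair in 5 of the 6 lines. The lowest quality within the CDR3, on a scale whose highest value here was 40, was 40 for both V genes in VQ-D1, VQ-D2, VQ-D4 and 4935, and 39 for both in VQ-D5. In 4938 it was 38 for IGKV3-12, the larger, and 40 for IGKV15-103. Among the 41 rows of other V genes, 4 of which lack an IGKC hit, 17 (41.5%) had a lowest quality under 38, down to 22. The mean quality was 39.98 ± 0.0254 for the larger and 39.99 ± 0.0124 for the smaller (SD, n = 6 each). The difference of -0.0101 came from 4938 alone, with 5 lines equal. A two-sided exact sign-flip test over 64 sign choices (p = 1) cannot decide here. With a single line that differs, its outcome was fixed in advance. Quality at the top of its scale also has little room to differ.

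Some steps before deposit touch the pair. Clonotype numbers are skipped in 3 of the 6 light tables, and in VQ-D1 the skipped number 1 falls between IGKV15-103 at 0 and IGKV3-12 at 2. What was removed there was not tested. Sequence carried by the transgene, kappas common to many mice, cells with both chains and transfer between libraries were not tested as sources of the pair.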

How the data were processed

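Total RNA of sorted cells was used for heavy and light chain libraries with 1 library per line, per the labels' protocols, and the submitters' processing notes name mm10. The deposited clonotype tables give whole-number counts and the fraction of each clonotype, with column names as MiXCR exports them per the file headers. No source used here states the version, the filters or the unit counted (reads or molecules). V, J and quality score values were used as deposited. The deposited aligned tables of the heavy chain libraries were searched as sequences, since their V calls name heavy chain genes alone.

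The blank line and the sum line at the end of the VQ-D2 light table were left out. Shares have exact Clopper-Pearson 95% intervals, and for 0 counts the limit shown is 3 counts. Amplified copies are not independent, so both cover counting error only. Joints were read from the deposited reference points. J substitutions are the shortfall from 10 per aligned base, with at most 39 bases, divided by 29. Kappa sequences in heavy libraries were matched on either strand by 20-base words within 250 bases before each CDR3 or in it, taken from heavy library sequences holding that CDR3. This replaced the aligned lengths planned. The word search was tried on exact pieces of its own reference sequences set in random bases. That trial held no related V genes, so it cannot show matches to them. The substitution formula was tried on scores built with the same formula, so that outcome was fixed in advance. The members, the lists and the tests were chosen with earlier results of these data known, and the J score comparison was added after the values were seen. Named were both V genes with all their clonotypes, their J genes, other kappa clonotypes with at least 1% of a light library and each line's largest heavy chain clonotype. Alternatives covered frame, count minimum, tied V genes, merged CDR3s, lines left out and matching length. Software was Python 3.11.15 with scipy 1.17.1, numpy 2.4.6, pandas 2.3.3, biopython 1.88 and matplotlib 3.10.9.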

Additional observations from a re-analysis of the deposited data

Results flagged for a closer look

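Among the 4 primary lines, 1 line stood apart from the other 3 in 5 quantities by a gap rule, given as a description. The shares are from the counts that chose the pair. For base quality, any single step among otherwise equal values meets the rule, so no chance rate is given. IGKV15-103 took 98.2% of counts in VQ-D1, against 0.686% to 4.95% in the others. Counts outside the pair made up 21.4% in VQ-D5, against 0.195% to 1.48%. The implied J substitutions of IGKV15-103 were 3.58 in VQ-D4, against 3.97 to 4. The lowest base quality of both V genes was 39 in VQ-D5 and 40 in the other 3 lines, a step of 1 unit.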

How the results depend on the processing

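The shares of both V genes in the 6 light libraries were recomputed under 5 alternatives each, and 58 of these 60 values stayed within the counting interval of the share as reported, with a largest change of 0.625 points. IGKV3-12 in VQ-D2 moved to 99.3% with at least 2 counts, and to the same 99.3% with merged CDR3s and then at least 2 counts. Leaving out 1 line moved the primary mean from 56.7% to 89.0% for IGKV3-12 and from 3.16% to 35.6% for IGKV15-103, and the derived means from 18.2% to 75% and from 25% to 81.6%. The implied J substitutions of IGKV15-103 ranged from 3.91 to 3.99 and those of IGKV3-12 from 0.0193 to 0.0366 with 1 line left out, an alternative chosen after seeing the data. The fold range of the smaller count ran from 2.08 without VQ-D2 to 9.17, also chosen after seeing the data. The quality difference ranged from -0.0121 to 0 with 1 line left out. It was -0.333 as lowest quality and 0 over the 4 primary lines, and without the pairing by line (no replicate block) it was -0.0101 (two-sided exact permutation p = 0.727). A test paired by line of heavy against light library shares was not run. With 90 bases for matching, an alternative chosen after seeing the data, IGKV8-27 in the VQ-D4 heavy library fell to 7.14% of 28 sequences and IGKV6-15 took 92.9%, on as few as 2 words. Both members stayed at 0 there. Depth limits 4935 and 4938 most, with 385 and 212 counts.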
